A study of Mus musculus with 18 samples.

Results

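A pair of guide RNAs against Ppia were compared with each other in Type D small cell lung cancer cells of the mouse: sgPpia#3.2, which left less Ppia transcript, and sgPpia#4.1, which left more. Members were the genes at 1 TPM (a length-corrected share of all transcripts) or more in 3 or more of the 12 samples that carried either guide, which gave 12513 of the 25239 genes measured, and the 12 samples were taken from 18. The samples came from 3 tumor-derived cell lines (4711-1, 4711-18 and 4716-11), each with sgPpia#3.2 or sgPpia#4.1 and each treated for 72 h with vehicle (Control) or with 4-OHT (Restored). Cells of the same lines with sgBgal, a guide against a bacterial gene, supplied the untargeted level. All groups shared the genotype of the mouse model, which combines floxed Rb1 and Rbl2, the Trp53 XTR allele and Rosa26 FlpO-ER, with tumors started by an adenovirus carrying Cre under the CMV promoter. The cells had therefore lost Rb1 and Rbl2, and p53 was silent until 4-OHT activated FlpO. The guides and Cas9 came from a lentiviral vector, and Ppia transcript was lowered and not lost in the cells that carried them. Each sample of a guide was matched with the sample of the other guide from the same cell line and treatment, which gave 6 pairs, and the 3 cell lines were the replicates. The Control and Restored samples with 1 guide in 1 line share a line and a transduction, so the 6 pairs were not independent. Differences below are sgPpia#3.2 minus sgPpia#4.1 on the log2(TPM + 1) scale, which understates the difference of low genes, and TPM values of the lines are listed in the order 4711-1, 4711-18 and 4716-11.

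Ppia encodes cyclophilin A (CypA), an abundant cytosolic enzyme that turns the peptide bond before a proline and that binds the drug cyclosporin A. Other cyclophilins carry the same fold in the mitochondrion, the endoplasmic reticulum and the spliceosome. A CRISPR guide directs Cas9 to cut next to a short motif, the PAM, and repair of the cut often shifts the reading frame, after which nonsense-mediated decay can remove part of the transcript. A pair of guides against 1 gene is commonly used to separate what follows from loss of that gene from what is particular to a guide or to a population of transduced cells.

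Both target sites lie in coding exons of Ppia on chromosome 11 and are shown because the cut position is the designed difference between the samples. The letters were read from GENCODE M21 transcripts (GRCm38) on the plus strand, with the site of 20 bases in lower case and the PAM in capitals.
sgPpia#3.2 site: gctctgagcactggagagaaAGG
sgPpia#4.1 site: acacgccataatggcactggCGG
The sgPpia#3.2 site covers chr11:6418237-6418256 in exon 3 and the sgPpia#4.1 site chr11:6419125-6419144 in exon 4, with 868 bases between them. Ppia has many processed copies in the mouse genome. Outside Ppia, annotated transcripts held the sgPpia#3.2 site followed by NGG at 19 loci and the sgPpia#4.1 site at 11 loci. Of the 22 and 13 gene names at these loci 8 were matched by both guides, and Gclm was the 1 name among them that passed the TPM minimum. Gclm encodes the modifier subunit of glutamate-cysteine ligase, and the match lies in a processed transcript of its locus. Gclm stood at 107.6, 95.8 and 147.5 TPM in Control and 127, 149 and 118 TPM in Restored with sgPpia#3.2 and at 124, 172 and 136 TPM in Control and 152, 208 and 113 TPM in Restored with sgPpia#4.1. It was lower with sgPpia#3.2 in both states of 4711-1 and 4711-18 and higher in both states of 4716-11, with a difference of -0.27 (SE 0.14, limma adjusted p = 0.88). Reads of the near-identical copies could have been counted for Ppia or the reverse, which was not tested.

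Because TPM add up to 1 fixed total, absolute depth was unknown. The steps between low values gave relative depths of 1.07 to 1.77 over the 12 samples, and the sample with sgPpia#3.2 was the deeper one in 6 of 6 pairs, by 1.03 to 1.21 times. The part of depth in the differences was not tested. Of the neuroendocrine markers, Neurod1, Chga, Chgb, Calca and Dll3 were at or below 0.22 TPM in all 12 samples, so these defining markers of a neuroendocrine tumor were at or near 0, while Syp (3.03 to 7.12 TPM) and Ncam1 (6.9 to 29.7 TPM) were measured. None of 9 fibroblast and 5 endothelial markers passed the TPM minimum, and of 8 leukocyte markers 2 did, Cd68 and Lyz2. The summed leukocyte markers ranged over 3.17 to 7.44 TPM with sgPpia#3.2 and 3.36 to 6.1 TPM with sgPpia#4.1 in Control, and over 26.6 to 34.3 and 23 to 34.8 TPM in Restored. Before the results, 2 populations stood apart from the other guides of their own line. In 4711-18 the SD over genes of the difference from sgBgal was 0.56 in Control and 0.47 in Restored with sgPpia#3.2, against 0.27 in both states with sgPpia#4.1. In 4711-1 Restored it was 0.29 with sgPpia#3.2 and 0.45 with sgPpia#4.1, and in 4711-1 Control 0.34 and 0.38. In 4716-11 these SDs lay between 0.22 and 0.26. In bulk RNA a smaller share of cells that express a gene and less RNA per cell cannot be told apart.

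Ppia was lower with sgPpia#3.2 than with sgPpia#4.1 in 6 of 6 pairs. With sgPpia#3.2 it stood at 1073, 658 and 1207 TPM in Control and 873, 769 and 1232 TPM in Restored. With sgPpia#4.1 it stood at 1713, 1684 and 1952 TPM in Control and 1678, 1191 and 1765 TPM in Restored, and with sgBgal at 2704, 2575 and 2849 TPM in Control and 2060.1, 1552 and 2729.7 TPM in Restored. The 12 values of the 2 guides overlapped only between the highest sgPpia#3.2 samples, those of 4716-11, and the lowest sgPpia#4.1 sample, 4711-18 Restored. Within each line and treatment sgPpia#4.1 lay between sgPpia#3.2 and sgBgal. Cells with sgPpia#3.2 held 58.3% ± 11.1 (SD, n = 6 pairs from 3 lines) of the Ppia TPM of cells with sgPpia#4.1. That share was 54.5% ± 13.4 in Control (n = 3) and 62.1% ± 9.14 in Restored (n = 3), from 39% in 4711-18 Control to 69.8% in 4716-11 Restored. The log2 difference was -0.80 (SE 0.12, limma adjusted p = 0.88) over both states, -0.91 in Control and -0.70 in Restored, so Ppia was not called. By p it ranked 3 among 12513 genes and by the size of the difference 10. Flipping the signs of the 3 line means in an exact two-sided permutation test gave p = 0.25, the smallest that 3 lines allow. Because the pair of guides was chosen for its Ppia level, these values describe the samples and support nothing further.

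**Figure D1:**
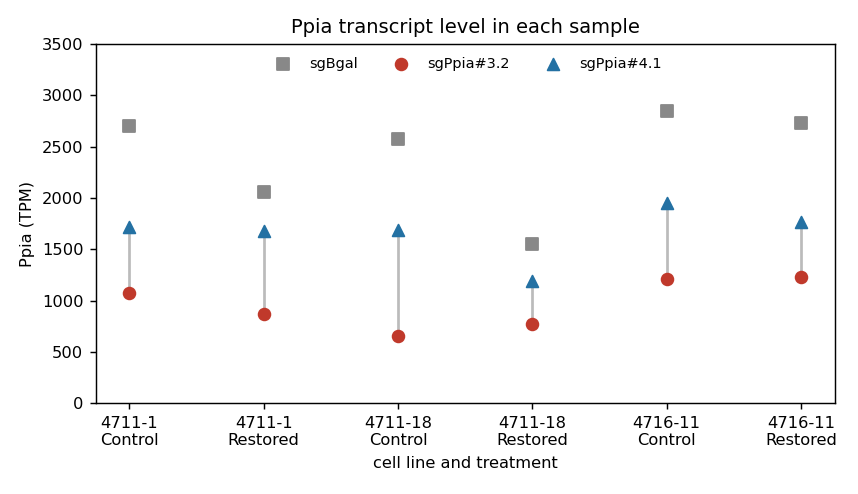
Ppia transcript level (TPM, vertical axis) in each cell line and treatment (horizontal axis), with 1 point per sample for sgPpia#3.2, sgPpia#4.1 and sgBgal and a line joining the 2 Ppia guides. In all 6 pairs the sgPpia#3.2 sample lies below the sgPpia#4.1 sample, which lies below the sgBgal sample.

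No gene was called between the guides. With limma on the 6 pairs, 0 of 12513 genes (0%) passed a Benjamini-Hochberg adjusted p under 0.05 with an absolute log2 difference of at least 1 over both states, 0 (0%) did in Control and 0 (0%) in Restored. The guide difference in Restored minus that in Control, which asks whether the response to p53 restoration depended on the guide, was called at the adjusted p alone for 0 genes (0%). The lowest adjusted p of the 4 comparisons was 0.88, 0.999, 1 and 1. At an unadjusted limma p under 0.05 there were 642 genes over both states, which is 5.13% of the genes tested, 403 in Control, 267 in Restored and 151 for Restored minus Control. Trp53, which 4-OHT restores, stood at 5.45 to 8.27 TPM in the 6 Control samples and at 181 to 236 TPM in the 6 Restored samples. The guides overlapped in both states, with a difference of -0.07 (SE 0.12, limma adjusted p = 0.958).

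The same direction in all 6 pairs was seen in 679 genes (5.43%), of which 203 (1.62%) were higher and 476 (3.8%) lower with sgPpia#3.2. This split moved with the scaling: after median-of-ratios rescaling 331 genes were higher and 300 lower, so 29.9% of them were higher on the deposited scale and 52.5% on the other. The median difference of all genes was -0.03 before and near 0 after rescaling, and 41.8% of all genes had a positive difference before and 50.1% after. Genes named below were the largest differences of 1 direction in all pairs at an unadjusted p under 0.05, and none of them was called.

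Among the higher genes Ism1, which encodes the secreted protein isthmin, had the largest difference. Ism1 stood at 4.38, 5.29 and 8.01 TPM in Control and 7.7, 17.4 and 16.8 TPM in Restored with sgPpia#3.2 and at 1.92, 2.41 and 4.51 TPM in Control and 5.2, 8.52 and 5.96 TPM in Restored with sgPpia#4.1. Every sgPpia#3.2 sample was above its partner, with a difference of 0.88 (SE 0.12, limma adjusted p = 0.88), although the lines overlapped. Gmpr, a reductase of purine nucleotide recycling, stood at 15.4, 16 and 8.38 TPM in Control and 16, 10.3 and 9.83 TPM in Restored with sgPpia#3.2 and at 8.32, 4.95 and 7.49 TPM in Control and 8.24, 6.94 and 5.54 TPM in Restored with sgPpia#4.1, a difference of 0.77 (SE 0.17, limma adjusted p = 0.88). The widest gap of Gmpr was in 4711-18 Control and the narrowest in 4716-11 Control. Kcnab3, an auxiliary subunit of potassium channels, differed by 0.73 ± 0.17, Thbd, the thrombin receptor thrombomodulin, by 0.58 ± 0.14, and Arhgap8, a GTPase-activating protein, by 0.52 ± 0.13 (log2 ± SE of the fit, which takes the 2 pairs of a line as independent and can understate the spread between lines). Tnc, the matrix protein tenascin C, stood at 16.7, 5.43 and 1.18 TPM in Control and 69.9, 15.4 and 6.27 TPM in Restored with sgPpia#3.2 and at 6.86, 1.18 and 1.02 TPM in Control and 59.4, 14.1 and 5.32 TPM in Restored with sgPpia#4.1. Most of its difference lay in the Control pairs of 4711-1 and 4711-18. Vip, a neuropeptide, differed by 0.62 ± 0.19, but it was at or below 1.23 TPM outside 4711-18, where it stood at 25.8 and 8.56 TPM in Control and at 30.0 and 22.4 TPM in Restored with sgPpia#3.2 and sgPpia#4.1. Thbd was at or below 2.14 TPM outside 4711-1 with either Ppia guide. The remaining higher genes of this group were Mir7027 (0.72), Gm4013 (0.67) and Ccdc24 (0.54). Mir7027 was at 0 TPM in the sgPpia#4.1 Control samples of 4711-18 and 4716-11.

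**Figure D2:**
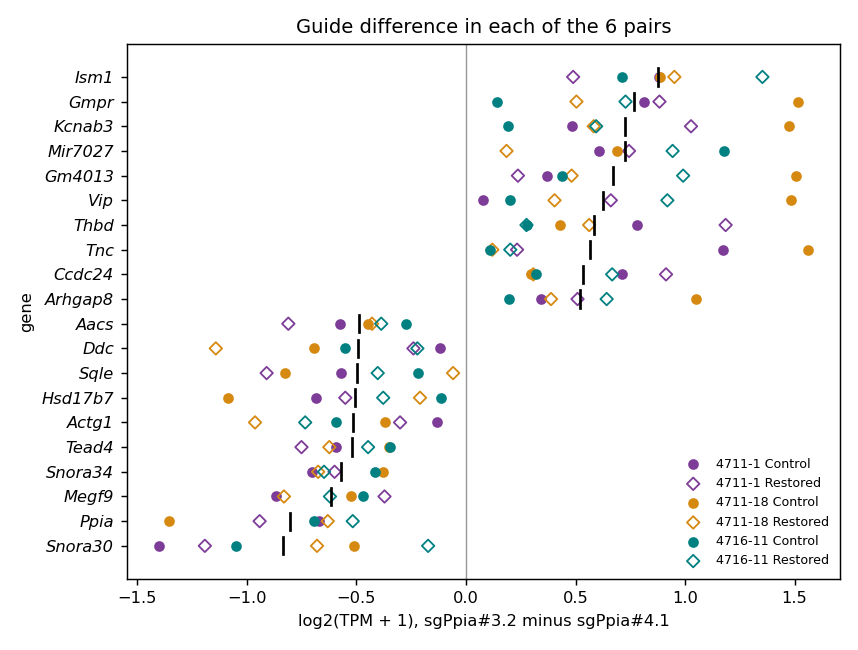
Log2 difference (sgPpia#3.2 minus sgPpia#4.1, horizontal axis) of 20 genes (vertical axis) in the 6 pairs, coloured by cell line, with filled circles for Control, open diamonds for Restored and a black bar at the fitted value over both states. All points of a gene lie on 1 side of 0 because the genes were chosen for that, and 4711-18 Control often lies farthest out.

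Among the lower genes Megf9, a membrane protein with EGF-like domains, stood at 2.47, 4.87 and 3.1 TPM in Control and 3.36, 4.72 and 3.43 TPM in Restored with sgPpia#3.2 and at 5.34, 7.44 and 4.69 TPM in Control and 4.64, 9.18 and 5.82 TPM in Restored with sgPpia#4.1. It was lower in each pair and differed by -0.61 (SE 0.10, limma adjusted p = 0.88). Tead4, a DNA-binding partner of YAP1, stood at 11.1, 6.11 and 7 TPM in Control and 11.3, 4.52 and 4.94 TPM in Restored with sgPpia#3.2 and at 17.2, 8.08 and 9.19 TPM in Control and 19.7, 7.5 and 7.09 TPM in Restored with sgPpia#4.1. Its difference of -0.52 (SE 0.09, limma adjusted p = 0.88) ran from -0.75 to -0.35 over the pairs, and the samples of 4711-1 were the highest with either guide. Actg1, the gene of cytoplasmic gamma actin and 1 of the most abundant transcripts of the group, stood at 698, 918 and 464 TPM in Control and 437, 347 and 386 TPM in Restored with sgPpia#3.2 and at 766, 1185 and 700.0 TPM in Control and 538, 677 and 642 TPM in Restored with sgPpia#4.1, a difference of -0.52 (SE 0.12, limma adjusted p = 0.88). Its gap was widest in 4711-18 Restored. Ddc, the decarboxylase that makes dopamine and serotonin from their precursors, differed by -0.49 ± 0.15 and was at or below 1.75 TPM outside 4711-18. Snora30 (-0.83) and Snora34 (-0.57) are small nucleolar RNAs at 0.293 to 4.52 TPM and 2.6 to 14.3 TPM, where a short gene model rests on few reads.

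The other 3 lower genes act in lipid synthesis, and 26 genes of sterol synthesis and uptake were then examined together. That list was chosen after values had been seen, and those of the 3 lower genes that belong to it are included in its counts. No member was called, but the difference was negative in 26 of 26, with a median of -0.34 beside -0.03 for all genes, and 7 members were lower in all 6 pairs, where 3.8% of all genes were. After median-of-ratios rescaling the median was -0.30 and 4 members were lower in all pairs. Sqle, the squalene epoxidase at the first oxygen-dependent step of the pathway, stood at 166, 120.4 and 251 TPM in Control and 62.8, 52.4 and 105 TPM in Restored with sgPpia#3.2 and at 247, 214 and 292 TPM in Control and 119, 54.7 and 139 TPM in Restored with sgPpia#4.1, a difference of -0.50 (SE 0.14, limma adjusted p = 0.88). The pairs of 4711-1 and the Control pair of 4711-18 were the widest, and 4711-18 Restored was close to equal. Hsd17b7, a reductase of the same pathway, differed by -0.51 ± 0.13, Idi1, an isoprenoid isomerase, by -0.48 ± 0.14, and Aacs, which activates acetoacetate for lipid synthesis, by -0.49 ± 0.10. The list's median was -0.57 in 4711-1 Control and -0.56 in Restored, -0.55 and 0 in 4711-18, and -0.07 and -0.24 in 4716-11. Set beside sgBgal, the 2 guides did not keep 1 order. In 4716-11 Restored the summed list was at 2010 TPM with sgPpia#3.2, 2450 TPM with sgPpia#4.1 and 1840 TPM with sgBgal, and in 4711-18 Control at 2490, 3570 and 4080 TPM.

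Genes of the cytosolic ribosome went the other way by a small amount. Of 82 ribosomal protein genes 80 (97.6%, beside 41.8% of all genes) had a positive difference, with a median of 0.12, and 28 were higher with sgPpia#3.2 in all 6 pairs, where 1.62% of all genes were. None was called. After median-of-ratios rescaling the counts were 81 and 29. The median by pair ran from 0.06 in 4716-11 Control to 0.20 in 4711-1 Restored. Rpl36a, a protein of the large subunit, stood at 1279, 1266 and 1506 TPM in Control and 1105, 1040.4 and 1156 TPM in Restored with sgPpia#3.2 and at 1113, 1075 and 1231 TPM in Control and 929.9, 806 and 955 TPM in Restored with sgPpia#4.1. Rps28, of the small subunit, differed by 0.25 ± 0.08, and Rpl36a by 0.27 ± 0.08. The summed list was higher with sgPpia#3.2 in 6 of 6 pairs, for example 167000 against 163000 TPM in 4716-11 Control and 128000 against 114000 TPM in 4711-1 Restored. Deeper samples and higher ribosomal protein transcripts coincided in these pairs, and the part of depth was not tested.

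Of 25 genes of interferon response and nucleic acid sensing that were tested, 21 (84%) had a positive difference, beside 41.8% of all genes, with a median of 0.08, and none was called. The median by pair was -0.23 in 4711-1 Control and between 0.08 and 0.20 in the other pairs. Bst2, which tethers virus particles to the cell, stood at 80.9, 195 and 75.6 TPM in Control and 101, 99.7 and 55.2 TPM in Restored with sgPpia#3.2 and at 76.8, 106 and 70.4 TPM in Control and 91.8, 75.5 and 36.7 TPM in Restored with sgPpia#4.1. It was higher in each pair and differed by 0.36 ± 0.13. Isg15, a ubiquitin-like modifier, was at or below 2.72 TPM in all 12 samples and differed by 0.52 ± 0.15. Among 16 FKBP and parvulin isomerases, the other families of prolyl isomerases, Fkbp7 was the 1 gene of the same sign in all pairs. Fkbp7 stood at 19.1, 21.8 and 11.7 TPM in Control and 17.6, 19.2 and 9.69 TPM in Restored with sgPpia#3.2 and at 15.2, 16.8 and 9.44 TPM in Control and 12.8, 13.7 and 8.07 TPM in Restored with sgPpia#4.1, a difference of 0.35 (SE 0.08, limma adjusted p = 0.88).

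Within a single state, the genes of the naming rule were again uncalled, and many were small RNAs. Lower in Control with sgPpia#3.2 were Tfcp2l1, a transcription factor of epithelia, at -1.09 and Eps8l3, a member of the Eps8 family of actin regulators, at -1.03. Tfcp2l1 stood at 3.04, 15 and 8.09 TPM in Control and 3.18, 14.9 and 5.64 TPM in Restored with sgPpia#3.2 and at 6.99, 32.2 and 20.5 TPM in Control and 1.19, 10.9 and 10.9 TPM in Restored with sgPpia#4.1, and its order turned in Restored cells of the 4711 lines. The small RNAs were Mir7673 (1.85), Gm24627 (1.45) and Mir1258 (-1.40) in Control, and Mir6922 (1.53), Mir3092 (1.47), Mir6904 (1.33), Snord93 (-1.51), Mir7045 (-1.32) and Snord42b (-0.71) in Restored. For Restored minus Control the 6 genes were all small RNAs, with Mirlet7i at 2.08, Mir6976 at 1.94, Mir1258 at 1.94, Mir7045 at -2.39, Mir7673 at -2.27 and Snord93 at -1.95. Except for Snord42b and Gm24627, these small RNAs were at or below 11.8 TPM in all 12 samples and listed at 0 in some.

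The guide difference itself varied between cell lines. Of the squared differences over all genes and pairs, 15.7% were common to the 6 pairs (1 degree of freedom), 49% lay between lines (2), 8.16% between treatments (1) and 27.2% in the remainder (2). Between the Control and the Restored pair of a line, the guide difference correlated across the 12513 genes with r = 0.45 in 4711-1, 0.28 in 4711-18 and 0.25 in 4716-11. These r are across genes, which are not independent replicates, and the pairs of a line share the line and the transduction. Between different lines the 8 values with 4716-11 were all weakly positive, from 0.01 to 0.17. The 4 values between 4711-1 and 4711-18 were all negative, from -0.45 to -0.16, and the 2 of them within a treatment were also negative among the 6660 genes with at least 10 TPM in all samples, where r was -0.52 in Control and -0.44 in Restored. The spread also differed, since 7.08% of genes were at least 1 log2 apart in 4711-18 Control, 2.4% to 2.77% in the other pairs of the 4711 lines and 0.575% and 0.759% in 4716-11.

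**Figure D3:**
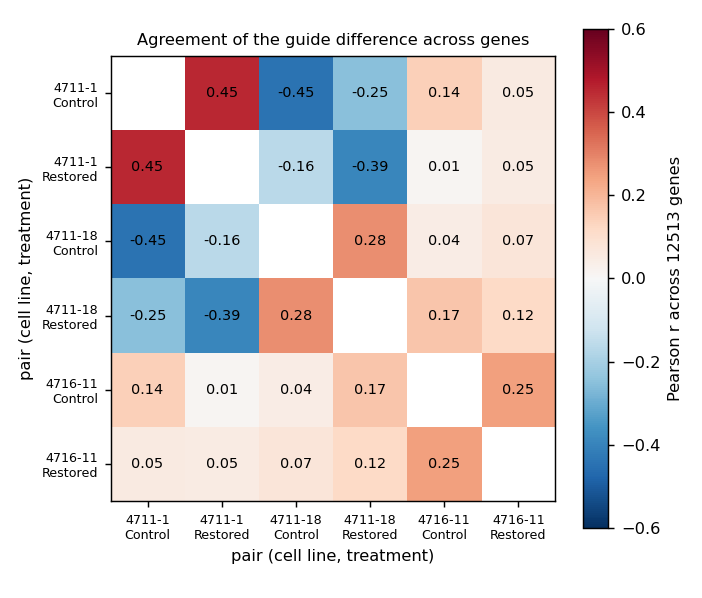
Pearson r across 12513 genes (colour and number) of the guide difference between each 2 of the 6 pairs, which are named by cell line and treatment on both axes. The 2 pairs of a line have positive r, and pairs of 4711-1 have negative r with pairs of 4711-18.

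At least 1 log2 apart in the same direction in both states were 56 genes higher (0.448%) and 25 lower (0.2%) with sgPpia#3.2 in 4711-1, 36 higher (0.288%) and 53 lower (0.424%) in 4711-18, and 6 higher (0.048%) and 6 lower (0.048%) in 4716-11. With 1 pair in each state these counts have no test, and they rested on low genes in part: on a log2(TPM + 0.1) scale the totals were 171, 229 and 47 in place of 81, 89 and 12. The 4711 lines shared 18 of these genes, which is 22.2% of the 81 in 4711-1 and 20.2% of the 89 in 4711-18, and all 18 had opposite directions in the 2 lines. They were Atf3, Sgk1, Fosb, Ccn1, Mir140, Snord70, Bmf, Egr2, H3c11, Zfp87, Mir27a, Fos, Egln3, Edn1, Btg2, H1f3, H2bc4 and Zfp36. The share of all genes with opposite directions in these lines was not counted. As r between these lines was negative over all genes, opposite directions were not particular to the 18.

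Several of the 18 are immediate early genes, which encode transcription factors and feedback regulators that respond within minutes to growth factors and stress. Single genes given by line from here on were chosen after their values were seen. For the list of immediate early genes, the median difference over 12 genes was 1.06 in Control and 1.93 in Restored of 4711-1, -0.97 and -1.44 in 4711-18, and 0.04 and -0.37 in 4716-11, beside -0.14, 0.01, 0.09, -0.04, -0.06 and -0.02 for all genes in the same order. Fosb, a subunit of the AP-1 factor, stood in 4711-1 at 119.7 TPM in Control and 406 TPM in Restored with sgPpia#3.2, at 21.4 and 14 TPM with sgPpia#4.1 and at 149 and 177 TPM with sgBgal. In 4711-18 Fosb stood at 4.86 and 3.58 TPM with sgPpia#3.2, at 13.1 and 108 TPM with sgPpia#4.1 and at 16.6 and 159 TPM with sgBgal. So the low sample was the 1 with sgPpia#4.1 in 4711-1 and the 1 with sgPpia#3.2 in 4711-18, and on the log scale the other guide was nearer to sgBgal.

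The same pattern held for Atf3, a stress-induced transcription factor. In 4711-1 it was at 414 and 428 TPM with sgPpia#3.2, at 31.4 and 6.05 TPM with sgPpia#4.1 and at 768 and 285 TPM with sgBgal (Control, then Restored). In 4711-18 it was at 87.1 and 45.7 TPM with sgPpia#3.2, at 228 and 556 TPM with sgPpia#4.1 and at 239.9 and 592 TPM with sgBgal. In 4716-11 all 6 values of Atf3, sgBgal included, lay between 285 and 681 TPM. Of the 12 immediate early genes, sgPpia#4.1 gave the lowest of the 3 guides for 11 in each state of 4711-1. In 4711-18 sgPpia#3.2 was lowest for 9 in Control and 12 in Restored. The share of all genes with these orders was not counted, so the counts have no background. The same guides had the larger SD from sgBgal over all genes in these lines. Egr2, a zinc finger factor, differed by 1.56 in Control and 3.35 in Restored of 4711-1 and by -3.06 in Control and -2.76 in Restored of 4711-18. Jun, the partner of Fos proteins in AP-1, differed by 2.15 in Control and 2.98 in Restored and by -0.84 in Control and -1.39 in Restored in these lines. Sgk1, a kinase induced by serum and glucocorticoids, differed by 2.48 in Control and 3.77 in Restored and by -1.03 in Control and -2.88 in Restored. Klf2, a transcription factor, and Ccn1, a matrix-associated target of YAP and TEAD, followed the same signs. Bmf, which encodes a BH3-only inducer of apoptosis, was reversed, at -2.03 in Control and -1.63 in Restored of 4711-1 and 1.14 in Control and 1.84 in Restored of 4711-18. Ccn2, another target of YAP and TEAD, was 2.11 in Control and 3.17 in Restored of 4711-1 but also positive in 4711-18, at 0.86 in Control and 0.30 in Restored.

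**Figure D4:**
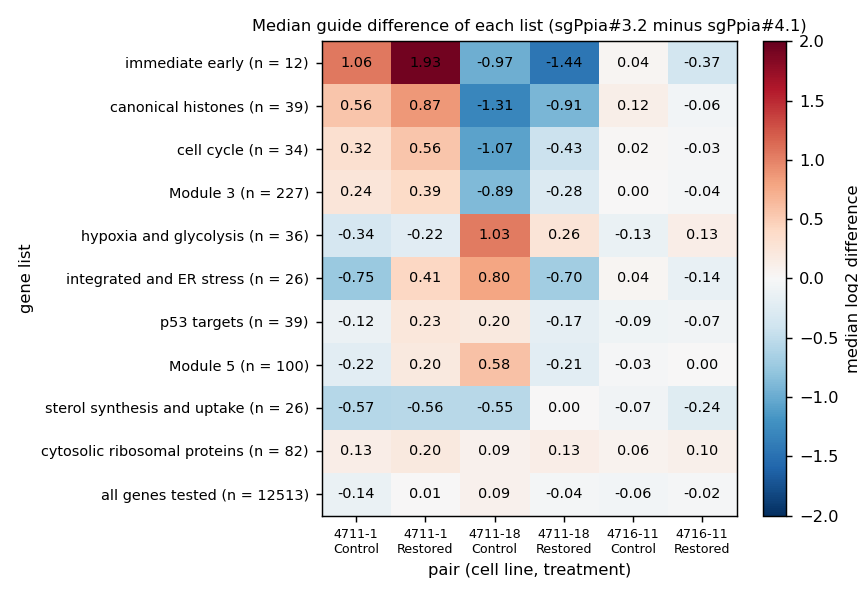
Median log2 difference (sgPpia#3.2 minus sgPpia#4.1, colour and number) of 10 gene lists and of all genes tested (vertical axis, with the number of genes) in the 6 pairs (horizontal axis). Immediate early, histone and cell-cycle genes are positive in 4711-1, negative in 4711-18 and near 0 in 4716-11, apart from -0.37 for immediate early genes in 4716-11 Restored.

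Replication-dependent histone genes, which supply histones in S phase, followed the same lines. The histone list was chosen after values had been seen. Over 39 of them the median difference was 0.56 and 0.87 in Control and Restored of 4711-1, -1.31 and -0.91 in 4711-18, and 0.12 and -0.06 in 4716-11. Their summed level in Control was 713 TPM with sgPpia#3.2, 430 TPM with sgPpia#4.1 and 953 TPM with sgBgal in 4711-1, and 249, 995 and 1120 TPM in 4711-18. The guide that stood lowest was again sgPpia#4.1 in 4711-1, for 37 of 39 genes in Control and 31 in Restored. In 4711-18 it was sgPpia#3.2, for 37 and 27. These counts, too, have no share of all genes beside them. H1f3, a linker histone, differed by 1.21 in Control and 2.42 in Restored of 4711-1 and by -2.66 in Control and -2.78 in Restored of 4711-18. Over 34 cell-cycle genes the median was 0.32 and 0.56 in 4711-1, -1.07 and -0.43 in 4711-18, and 0.02 and -0.03 in 4716-11. In 4711-18, 32 of the 34 were lower with sgPpia#3.2 in both states, as were 26.7% of all genes. Mki67, a marker of cycling cells, stood in 4711-18 Control at 23 TPM with sgPpia#3.2, 63.8 TPM with sgPpia#4.1 and 92.5 TPM with sgBgal. In 4711-1 Control its values were 80.6, 70.6 and 99.6 TPM, and in 4716-11 Control 62.1, 71.8 and 77.2 TPM. Mcm2, a subunit of the replicative helicase, had the same sign in all 6 pairs and differed by -0.24 ± 0.10.

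Genes of the response to low oxygen and of glycolysis had the opposite signs. This list, too, was chosen after values had been seen. The median over 36 genes was 1.03 in Control and 0.26 in Restored of 4711-18, -0.34 and -0.22 in 4711-1, and -0.13 and 0.13 in 4716-11. In both states, 27 of the 36 were higher with sgPpia#3.2 in 4711-18 and 26 were lower in 4711-1, where 29.6% and 38.2% of all genes were. Bnip3, a receptor for the removal of mitochondria that HIF induces, stood in 4711-18 at 488 and 209.7 TPM with sgPpia#3.2 (Control, then Restored), at 76.7 and 69.9 TPM with sgPpia#4.1 and at 69.9 and 98.5 TPM with sgBgal. In 4711-1 it stood at 98.9 and 78.6 TPM with sgPpia#3.2, at 171 and 126 TPM with sgPpia#4.1 and at 59.4 and 46.7 TPM with sgBgal. The highest guide was thus sgPpia#3.2 in 4711-18 and sgPpia#4.1 in 4711-1. Egln3, an oxygen-sensing prolyl hydroxylase that HIF induces, differed by 2.09 in Control and 1.34 in Restored of 4711-18 and by -2.29 in Control and -1.28 in Restored of 4711-1. Ankrd37, another HIF target, differed by 3.67 in Control and 1.04 in Restored of 4711-18. Bsg, the gene of basigin, a chaperone of lactate transporters and a cell surface receptor of extracellular CypA, stood at 1183, 3145 and 1368 TPM in Control and 1441, 2404 and 1861 TPM in Restored with sgPpia#3.2 and at 1412, 915 and 1386 TPM in Control and 1714, 1333 and 1606 TPM in Restored with sgPpia#4.1. It was higher with sgPpia#3.2 by 1.78 in Control and 0.85 in Restored of 4711-18, and in 4711-1 it was lower by a smaller amount, with differences of -0.26 in Control and -0.25 in Restored.

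**Figure D5:**
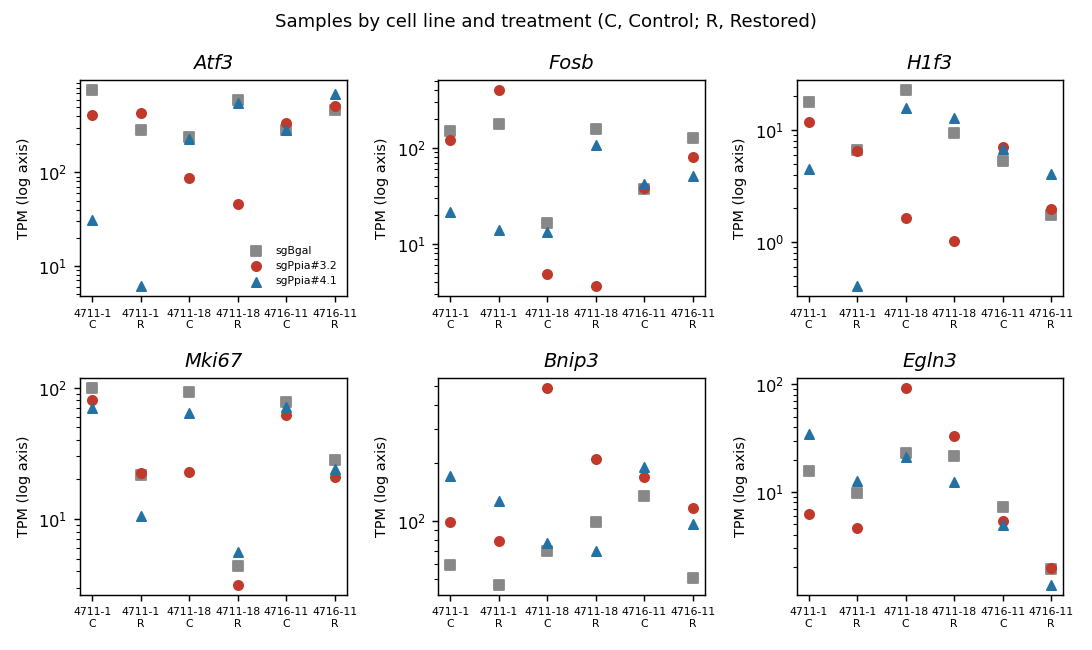
TPM (log axis) of 6 genes in the 18 samples, by cell line and treatment, with 1 point per sample for sgPpia#3.2, sgPpia#4.1 and sgBgal. Atf3, Fosb and H1f3 are lowest with sgPpia#4.1 in 4711-1 and with sgPpia#3.2 in 4711-18, Mki67 is lowest in the same samples, and Bnip3 and Egln3 are highest there.

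Gsta1, a glutathione transferase, stood at 6.68, 9.66 and 25 TPM in Control and 4, 8.98 and 26.5 TPM in Restored with sgPpia#3.2 and at 5.83, 47.2 and 22 TPM in Control and 5.05, 51.6 and 26.1 TPM in Restored with sgPpia#4.1, so it was low in the 4711-18 samples of sgPpia#3.2. Near-identical glutathione transferases could share its reads. Copz2, a coatomer subunit of vesicle transport that the study lists in its Type V signature, stood at 9.05, 12.5 and 12.8 TPM in Control and 15.8, 9.01 and 15.8 TPM in Restored with sgPpia#3.2 and at 11.4, 2.13 and 8.16 TPM in Control and 18.8, 1.95 and 9.53 TPM in Restored with sgPpia#4.1. It was higher with sgPpia#3.2 in 4711-18, by a smaller amount in 4716-11, and lower in 4711-1. In 4716-11 the 3 protein-coding genes at least 1 log2 apart in both states were Mmp3, Mcpt1 and Gxylt2. Mmp3, the matrix metalloprotease stromelysin, stood at 33.9, 10.1 and 18.4 TPM in Control and 186, 35.5 and 248 TPM in Restored with sgPpia#3.2 and at 58, 1.58 and 4.81 TPM in Control and 145, 11.3 and 85.8 TPM in Restored with sgPpia#4.1, so it was at least 1 log2 higher with sgPpia#3.2 in both states of 4711-18 too, and only 4711-1 Control had the reverse order.

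Targets of p53 had differences of both signs between the guides. Of 39 targets tested 0 were called, 17 (43.6%) had a positive difference and the median was -0.01, beside 41.8% and -0.03 for all genes. Restored minus Control had a median over these targets of 1.95 with sgPpia#3.2, 1.98 with sgPpia#4.1 and 2.14 with sgBgal (from means over 3 lines). The contrast of the guides called none of these targets. By line this response differed between guides for some targets, in both directions. For Sesn2 it was 1.17 in 4711-18 and 3.46 in 4711-1 with sgPpia#3.2, 3.32 and 0.963 with sgPpia#4.1, and 3.67 and 2.94 with sgBgal. For Fas in 4711-18 it was highest with sgPpia#3.2, at 4.6 against 3.68 with sgPpia#4.1 and 3.295 with sgBgal. By pair the median difference was -0.12 and 0.23 in 4711-1, 0.20 and -0.17 in 4711-18 and -0.09 and -0.07 in 4716-11. Cdkn1a, the CDK inhibitor p21, stood at 99.4, 369 and 101 TPM in Control and 1892, 2780.0 and 2124 TPM in Restored with sgPpia#3.2 and at 129, 171 and 117 TPM in Control and 1565, 3386 and 2306 TPM in Restored with sgPpia#4.1. The Control sample of 4711-18 with sgPpia#3.2 was the highest of the Control samples, and in Restored the guides overlapped. Plk2, a kinase of the polo family, differed by 2.75 in Control and 2.09 in Restored of 4711-1 and by -0.81 in Control and -1.87 in Restored of 4711-18, the signs of the immediate early genes. Tigar, which limits glycolysis, was the 1 target lower in all 6 pairs and differed by -0.21 ± 0.08. Trib3, a pseudokinase of the integrated stress response, turned its sign with the treatment, at -2.17 in Control and 1.61 in Restored of 4711-1 and 3.16 in Control and -0.91 in Restored of 4711-18. The list of integrated and endoplasmic reticulum stress had the same turn, with medians of -0.75 and 0.41 in 4711-1 and 0.80 and -0.70 in 4711-18.

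The study groups p53-responsive genes into 6 modules, from other samples of these same Type D lines and of Type V lines. Of the 100 tested genes of Module 5, which the study describes as induced by p53 mainly in Type D cells, 0 were called and 56 (56%) had a positive difference, with a median of 0.03, beside 41.8% and -0.03 for all genes. Its median by pair was -0.22 and 0.20 in 4711-1, 0.58 and -0.21 in 4711-18, and -0.03 and 0 in 4716-11. Csf2, a cytokine of granulocytes and macrophages in this module, stood at 101, 70.3 and 47.9 TPM in Control and 528, 128 and 153 TPM in Restored with sgPpia#3.2 and at 37.9, 46.8 and 30.2 TPM in Control and 117, 247 and 90.0 TPM in Restored with sgPpia#4.1, and was higher in 5 of 6 pairs. The medians of Modules 1, 2, 3, 4 and 6 were 0.01, -0.15, -0.08, -0.15 and 0.03, and none of their genes was called. Module 3 (227 genes tested) followed the cell-cycle genes, with 0.24 and 0.39 in 4711-1, -0.89 and -0.28 in 4711-18 and 0 and -0.04 in 4716-11. In Module 4, Tmigd1, an adhesion protein of epithelia, had line means of -1.07, -1.18 and 0.16 (mean -0.70 ± 0.75, SD, n = 3), so its sign turned in 4716-11, and Fbxl21, a ubiquitin ligase subunit of the circadian clock, a gene of Module 1, was higher in all 6 pairs at 0.45 ± 0.09. Of the 107 tested genes of the Type D signature, 28 (26.2%, beside 41.8% of all genes) had a positive difference and the median was -0.09. The lines differed, with medians of -0.31 and -0.13 in 4711-1, 0.24 and 0.04 in 4711-18 and -0.18 and -0.06 in 4716-11. In both states, 62 signature genes (57.9%) were lower with sgPpia#3.2 in 4711-1 and 65 (60.7%) in 4716-11, beside 38.2% and 39.5% of all genes. In 4711-18, 37 (34.6%) were higher and 20 (18.7%) lower in both states, beside 29.6% and 26.7% of all genes. After median-of-ratios rescaling 54 were lower in 4711-1 and 53 in 4716-11, beside 31.8% and 30.7% of all genes. Areg, a ligand of the EGF receptor, differed by 0.58 ± 0.15 and was higher in 5 of 6 pairs, Slc26a2, a sulfate transporter, by -0.57 ± 0.16. Gzme, a granzyme, had line means of -0.15, 1.45 and 0.78 (mean 0.69 ± 0.81, SD, n = 3), so its sign turned in 4711-1. In the Type V signature (39 genes) the median was 0.07, with Pard6g, a polarity protein, at 0.36 ± 0.10. Pard6g was at or below 0.84 TPM in the Control samples with either Ppia guide.

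Over both states, the fitted differences of the other cyclophilins were smaller than that of Ppia. Of 17 family members 16 were tested, and Ppil6 was below the TPM minimum. The differences of the other 15 lay between -0.10 for Ranbp2, a nuclear pore protein with a cyclophilin domain, and 0.11 for Ppib, the cyclophilin of the endoplasmic reticulum, and none of the 15 had the same sign in all 6 pairs. Ppib stood at 213, 168 and 196 TPM in Control and 164, 172 and 176 TPM in Restored with sgPpia#3.2 and at 183, 177 and 195 TPM in Control and 137, 147 and 172 TPM in Restored with sgPpia#4.1. Ppif, the mitochondrial cyclophilin, differed by -0.02 ± 0.10, Ppid, which works with HSP90, by -0.03 ± 0.11, Ppie, of the spliceosome, by 0.08 ± 0.08, and Ppih, also of the spliceosome, by -0.05 ± 0.19. In the 4711 lines the pairs of Ppih had opposite signs in Control, with 20.9 against 43 TPM in 4711-18 (-1.01) and 40.2 against 25.7 TPM in 4711-1 (0.62). With 3 lines these intervals leave room for small differences, and a p that misses the threshold does not show equal levels. Other lists without a called gene had medians of -0.02 for FKBP and parvulin isomerases (16 genes), -0.05 for calcineurin, NFAT and the CypA receptor (10 genes), -0.10 for DNA damage checkpoint and repair (34 genes, 5 positive, which is 14.7%), -0.05 for chaperones (22 genes), -0.08 for NRF2 antioxidant genes (17 genes), -0.03 for neuroendocrine markers (13 genes) and -0.01 for non-neuroendocrine and Notch genes (22 genes). These medians join lines that differed. In both states of 4711-18, 24 of the 34 repair genes (70.6%), 14 of the 22 chaperones (63.6%) and 9 of the 15 other cyclophilins (60%) were lower with sgPpia#3.2, beside 26.7% of all genes. After median-of-ratios rescaling these counts were 23, 10 and 7, beside 27% of all genes. In both states of 4711-1, 14 repair genes (41.2%), 8 chaperones (36.4%) and 9 of the other cyclophilins (60%) were higher, beside 22.7% of all genes, and 8 of the 10 calcineurin list genes (80%) were lower, beside 38.2%. Rescaled, they were 17, 10 and 12 higher, beside 29.4%, and 6 lower, beside 31.8%. The 27 tested genes within 1 Mb of Ppia had a median difference of -0.05, near that of all genes, with 2 lower and 1 higher in all 6 pairs.

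Leaving out a line moved the shared values little for Ppia (-0.90 to -0.71) and for ribosomal proteins (0.10 to 0.13). It turned the sign of the median of immediate early genes, which was -0.73 without 4711-1 and 0.66 without 4711-18, of histones, at -0.57 and 0.42, of cell-cycle genes, at -0.35 and 0.21, and of the low-oxygen list, at 0.32 and -0.17. The median of the sterol list stayed negative, at -0.37 to -0.23.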

How the data were processed

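Cells were treated for 72 h, and RNA-seq libraries were made by a service laboratory with NEBNext Ultra II reagents. The deposited table holds TPM values for 25239 genes in 18 samples. Per the labels, bcl2fastq (2.17) and HISAT2 were used. The authors' methods name Kallisto or HISAT2, without giving which made this table, and both mm10 and GRCm39, so its build was not settled. Names were matched to RefSeq biotypes. TPM minimum was 1 in at least 3 of 12 samples, and the pseudocount was 1. limma (3.58.1, R 4.3.3) was fitted on log2(TPM + 1) with 1 block for each cell line and treatment and a guide effect in each treatment, which left 4 residual degrees of freedom. A call needed a Benjamini-Hochberg adjusted p under 0.05 over 12513 genes and an absolute log2 difference of at least 1. The pairing comes from the cell line in the labels. SEs and p-values measure the spread between the 6 pairs, which the fit takes as independent although 2 come from each line. On simulated data with the residuals of these samples, the fit over both states called 75 of 100 genes changed by 1 log2 and 98 of 100 changed by 2, with both sets changed at once and 12 false calls, so this recovery applies to data with that many changed genes. The genes named were the 10 largest differences in each direction over both states, and the 3 largest for each other comparison, of 1 sign in all pairs and with an unadjusted p under 0.05, plus the cyclophilins, Trp53, Gclm and up to 4 members of each other gene list by size of difference, of which those of most bearing are printed. Some genes that these rules name are not reported here. Members and gene lists were chosen with earlier results of these data known, and the lists of sterol, low-oxygen and histone genes and the genes given by line were chosen after values of these samples were seen. Module and Type D or Type V lists came from the study. It defined them on other samples of these same Type D lines and of Type V lines. Differences by line and list medians were described without a test. Alternatives were no replicate block, a block of cell line, another pseudocount, median-of-ratios rescaling, other minima, all 18 samples, trended and robust variance, line means, protein-coding genes, and each line left out. Relative depth was read from the steps of low TPM values with Python 3.11.15 (numpy 2.4.6, pandas 2.3.3, matplotlib 3.10.9). Target sites were read from GENCODE M21 transcripts on GRCm38.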

Additional observations from a re-analysis of the deposited data

Results flagged for a closer look

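The guide difference (sgPpia#3.2 minus sgPpia#4.1) was positive in both pairs of one 4711 line and negative in both pairs of the other for several lists and genes. The values here are the mean difference of 4711-1 minus that of 4711-18 on the log2 scale, and the difference between lines was not tested, because each line holds 1 pair in each treatment. For list medians it was 2.7 for immediate early genes, 1.82 for histones and 1.19 for cell-cycle genes. For immediate early genes and other stress-induced genes it was 7.28 for Atf3, 6.52 for Fosb, 5.36 for Egr2, 5.24 for Fos, 5.08 for Sgk1, 4.23 for Klf2, 3.76 for Plk2, 3.68 for Jun, 3.61 for Ccn1 and 3.57 for Zfp36. It was 4.54 for the linker histone H1f3 and 1.66 for the proliferation marker Mki67. Genes with the opposite order were Egln3 at -3.5, Bmf at -3.32, Ankrd37 at -3.32, Bnip3 at -2.84, Copz2 at -2.21 and Bsg at -1.57. In these same lines the samples with sgPpia#4.1 in 4711-1 and with sgPpia#3.2 in 4711-18 stood farthest from sgBgal, apart from 4711-1 Control, where both guides were about as far. The part of a difference between transduced populations was not tested.

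Between treatments, Mir7045 was higher with sgPpia#3.2 in the Control pair of every line and lower in every Restored pair, by -2.39 as Restored minus Control. limma did not call that difference (adjusted p = 1), and the miRNA precursor was at or below 3.07 TPM in all 12 samples. Groups of 3 samples were too small for a search for single outlying samples.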

How the results depend on the processing

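No gene was called in any comparison under any alternative, and Ppia kept its direction, with a limma adjusted p over both states of 0.0921 (all 18 samples) to 1. At an unadjusted p under 0.05 over both states each fit had its own total, which was 642 as reported, 83 with no replicate block (no pairing by line), 344 on line means, 1396 without minimum TPM (of 21492 genes), 1097 with all 18 samples, and 153 to 1529 with each line left out. The share of the 642 that were higher was 36.8%, and that of the 645 after median-of-ratios rescaling 60.2%. Counts past 1 log2 in both states became 171 (4711-1), 229 (4711-18) and 47 (4716-11) on log2(TPM + 0.1), 53 (4711-18) and 2 (4716-11) with 1 TPM in all 12 samples, and 3 (4716-11) for protein-coding genes. Leaving out each replicate (line) moved list medians to -0.052 to 0.025 for FKBP and parvulin isomerases, -0.031 to 0.042 for neuroendocrine markers and -0.198 to -0.129 for Module 4. Rescaling turned Ppid (0), Ppif (0.012) and Ppil3 (0.012). Leaving out a line turned the small differences of Ppic (-0.038 to 0.087), Ppid (-0.121 to 0.109), Ppif (-0.073 to 0.091), Ppig (-0.194 to 0.074), Ppih (-0.254 to 0.189), Ppil1 (-0.144 to 0.038), Ppil3 (-0.08 to 0.021), Ppwd1 (-0.112 to 0.283), Cwc27 (-0.024 to 0.036) and Trp53 (-0.176 to 0.09). The causes were not tested. Absolute depth was unknown, so no counting error could be given for low genes.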
